A study of Mus musculus with 2 samples.

Results

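Distal DNase I hypersensitive peaks inside very long genes were examined in embryonic mouse retina. Members were the autosomal peaks whose midpoint lay inside a protein-coding gene of 500 kb or longer in the GENCODE M21 annotation of mm10 and more than 1 kb from any annotated transcription start site (TSS). The rule selected 8636 of the 165269 distinct peaks of replicate 1 and 13520 of the 219308 distinct peaks of replicate 2. These peaks lay in 218 of 20807 autosomal protein-coding genes, with lengths from 501.8 to 4434.9 kb and a median of 732.9 kb.

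The series holds 1 group, retina from B6NCrl mouse embryos at day 14.5, from pooled males and females and labelled healthy; the labels name no treatment and no genetic change. Its 2 libraries are labelled as biological replicates from separate tissue samples, under the same donor label. DNase-seq sequences the ends of DNA fragments released when DNase I cuts accessible chromatin, and each deposited peak is a 150 bp window with a score in its seventh column. A peak's rank is used below in place of the score, as the percentile of its score among all distinct peaks of its own library (0 lowest, 100 highest), because the median score was 29 in replicate 1 and 48 in replicate 2.

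The promoters of all 8 retinal progenitor markers and all 6 retinal ganglion cell markers held a peak in both libraries, within 1 kb of a TSS, as did 70.2% of all autosomal protein-coding genes. Promoter peaks in both libraries were found for 0 of 4 blood markers, 1 of 5 lens markers, 1 of 4 vessel markers, 1 of 3 liver markers, 2 of 4 pigment epithelium markers and 3 of 4 muscle markers, the last a share near that of all genes. In whole tissue, a larger number of cells with an open site and a more open site in each cell cannot be told apart. No read numbers were used here, so the depth of the libraries is unknown, and the larger peak list of replicate 2 enters every density given below.

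Very long genes are mostly genes of the nervous system. They encode adhesion molecules, ion channels, synaptic scaffolds and RNA-binding proteins, and most of their length is intron. Their introns can hold enhancers, which are short regulatory sequences bound by transcription factors, and sites of CTCF, the zinc finger protein that helps to set the ends of chromatin loops. At embryonic day 14.5 the mouse retina is made of dividing progenitors and newly born neurons, of which ganglion cells, amacrine cells, horizontal cells and cones are the early types.

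The sequences of the following shared peaks, those overlapped by a peak of the other library, are shown because each is the highest-ranked shared peak of its gene. They are the replicate 1 windows, read on the plus strand of GRCm38, in lower case, with matches to the searched motifs in capitals. The searched motifs were the CTCF core, the E-boxes CAGCTG and CAGATG, the homeodomain motif TAATTA, the SOX motif AACAAT, the AP-1 motif TGANTCA, the GC box GGGCGG and the NFI palindrome, each on both strands, so that a match on the minus strand is printed as its reverse complement. In the Arhgap15 window the CTCF core overlaps a CAGATG match.
Frmd4a, intron 12, chr2:4556276-4556425: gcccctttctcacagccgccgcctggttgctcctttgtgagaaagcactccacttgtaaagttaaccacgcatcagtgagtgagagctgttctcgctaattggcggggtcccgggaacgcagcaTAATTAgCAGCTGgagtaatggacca
Camta1, intron 9, chr4:151140716-151140865: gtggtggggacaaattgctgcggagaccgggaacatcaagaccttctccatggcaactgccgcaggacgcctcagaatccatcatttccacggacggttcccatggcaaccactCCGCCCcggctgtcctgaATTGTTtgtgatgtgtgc
Cdk14, intron 14, chr5:4877256-4877405: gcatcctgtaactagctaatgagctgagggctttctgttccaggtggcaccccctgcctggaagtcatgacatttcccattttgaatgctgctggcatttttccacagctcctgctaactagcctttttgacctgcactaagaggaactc
Zfhx3, intron 10, chr8:108886756-108886905: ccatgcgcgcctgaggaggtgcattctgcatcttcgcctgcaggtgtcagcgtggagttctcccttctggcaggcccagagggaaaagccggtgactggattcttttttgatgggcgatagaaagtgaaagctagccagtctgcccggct
Csmd2, intron 41, chr4:128492176-128492325: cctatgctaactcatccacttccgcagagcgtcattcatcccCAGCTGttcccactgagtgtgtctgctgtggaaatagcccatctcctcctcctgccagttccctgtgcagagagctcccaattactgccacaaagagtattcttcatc
Lrba, intron 53, chr3:86761756-86761905: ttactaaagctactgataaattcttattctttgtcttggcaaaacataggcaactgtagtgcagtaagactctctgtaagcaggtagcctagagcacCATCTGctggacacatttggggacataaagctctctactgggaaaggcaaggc
Pard3, intron 2, chr8:127178756-127178905: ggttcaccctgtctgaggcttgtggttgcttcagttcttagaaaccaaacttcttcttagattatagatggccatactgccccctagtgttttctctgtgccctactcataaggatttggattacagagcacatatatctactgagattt
Mecom, intron 2, chr3:30515136-30515285: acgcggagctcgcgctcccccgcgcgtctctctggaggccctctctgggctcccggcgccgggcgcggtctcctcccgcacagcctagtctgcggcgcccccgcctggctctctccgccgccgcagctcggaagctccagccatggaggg
Galntl6, exon 7, chr8:57958236-57958385: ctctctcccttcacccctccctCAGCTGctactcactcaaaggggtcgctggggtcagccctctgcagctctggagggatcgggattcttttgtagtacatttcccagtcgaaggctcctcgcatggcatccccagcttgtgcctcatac
Arhgap15, intron 6, chr2:43902696-43902845: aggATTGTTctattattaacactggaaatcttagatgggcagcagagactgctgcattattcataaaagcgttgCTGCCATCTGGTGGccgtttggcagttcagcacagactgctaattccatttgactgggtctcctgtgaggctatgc

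These windows ranged widely in rank and base composition. The Frmd4a window had ranks of 94.6 and 95.4 in replicates 1 and 2, the Camta1 window 95.4 and 95.7, and the Cdk14 window 96.1 and 97.99. Camta1, a calmodulin-binding transcription factor gene, held 10.8 and 13.3 distal peaks per 100 kb in all, and the cyclin-dependent kinase gene Cdk14 8.04 and 10.8. The Mecom window, at ranks of 95.0 and 95.7, was 76.7% G and C, and the Pard3 window, at ranks of 82.7 and 88.3, was 42% G and C. The Arhgap15 window, in a gene with no promoter peak, lay 153.9 kb from the nearest TSS and had ranks of 88.5 and 89.97. A shared distal peak was present in 217 of the 218 genes. In 69 of them the best shared peak reached a rank of 90 in both libraries, and 6 of those 69 held a CTCF core match, against 30 of all 217 best shared peaks.

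Distal peaks were sparser inside the long genes than inside shorter protein-coding genes. With assembly gaps left in the sequence counted, they were denser inside the long genes than between genes. The part of these gaps in the densities and shares was not tested. The comparison used all 218 gene models, among them read-through models. The 203 genes also 500 kb or longer in RefSeq held 7363 and 11913 of the long-gene peaks in replicates 1 and 2. Without the model Gm20388 alone, 8041 and 12879 remained. Neither of these smaller sets was compared with intergenic sequence. In replicate 1 the long genes held 4.77 peaks per 100 kb of sequence more than 1 kb from a TSS, against 6.63 in shorter genes and 4.39 in intergenic sequence. In replicate 2 the same densities were 7.47, 8.99 and 6.08. The long genes lay below the shorter genes by a mean of 1.69 ± 0.24 peaks per 100 kb (SD, n = 2 libraries) and above intergenic sequence by 0.883 ± 0.71. With 2 libraries of 1 group no test between conditions was possible, so each comparison is given in both libraries, with the SD of the difference over them. The long genes made up 7.83% of the distal autosomal sequence and held 7.30% and 8.24% of its peaks, so that their share was below the sequence share in replicate 1 and above it in replicate 2.

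Density was lower in each length bin above 300 kb than in genes of 200 to 300 kb, the densest bin above 25 kb in both libraries. In replicate 1 it was 6.76 peaks per 100 kb in genes of 200 to 300 kb, 5.59 at 300 to 500 kb, 5.39 at 500 to 750 kb, 4.26 at 750 to 1000 kb and 4.50 in the 55 genes of 1000 kb or longer. In replicate 2 the same steps gave 9.52, 8.33, 8.30, 6.82 and 7.09. Genes of 25 to 50 kb had 6.34 and 8.27 in replicates 1 and 2, in replicate 2 below the bins from 300 to 750 kb. The 500 kb limit therefore did not mark a step in density in either library, and the bins from 300 to 500 kb and from 500 to 750 kb differed by less than the libraries did. Along the gene, the first decile of the length held 5.23 and 7.84 peaks per 100 kb in replicates 1 and 2, and the last decile 5.51 and 8.11. The lowest decile was the fourth from the 5′ end in both libraries, at 4.29 and 6.79.

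**Figure D1:**
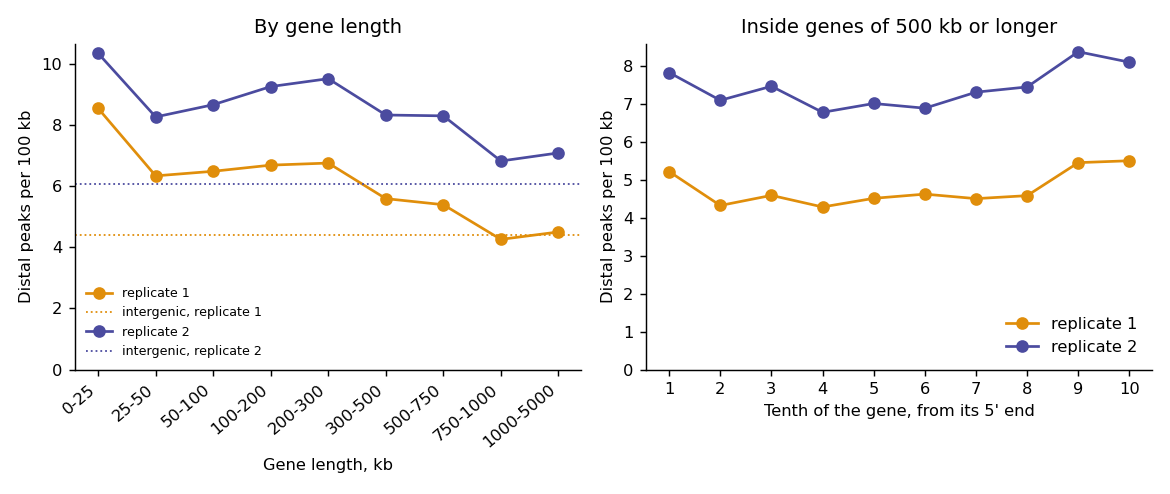
Distal peaks per 100 kb by gene length (left, all autosomal protein-coding genes, bins in kb, dotted lines for intergenic sequence) and by decile of the gene from its 5′ end (right, the 218 genes of 500 kb or longer), with 1 line per library. Density is lower above 300 kb than at 200 to 300 kb in both libraries and is highest in the last 2 deciles of the long genes.

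Peaks in the long genes had lower median ranks than those elsewhere, with fewer peaks at the top of the list. Their median rank was 40.7 in replicate 1 and 41.1 in replicate 2, against 45.5 and 47.5 in shorter genes and 43.2 and 42.8 in intergenic sequence. In scores these medians were 25 and 42 in long genes and 27 and 46 in shorter genes. At the bottom of the list, a rank under 25 was held by 28.4% and 28.45% of the long-gene peaks, 26.1% and 23.8% of the shorter-gene peaks and 31.02% and 30.01% of the intergenic peaks, so that the long genes also had a smaller share of the weakest peaks than intergenic sequence. A rank of 90 or more was reached by 1.74% and 3.04% of the long-gene peaks, by 3.06% and 4.50% of the shorter-gene peaks and by 3.87% and 4.96% of the intergenic peaks. Per 100 kb, such peaks numbered 0.0829 and 0.227 in long genes, 0.203 and 0.405 in shorter genes and 0.170 and 0.302 in intergenic sequence. The long genes thus had fewer of the strongest distal peaks per length than intergenic sequence in both libraries. Over all ranks they had more peaks per length, with assembly gaps and all 218 gene models counted. In 76 of the 218 genes, no distal peak reached a rank of 90 in either library.

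**Figure D2:**
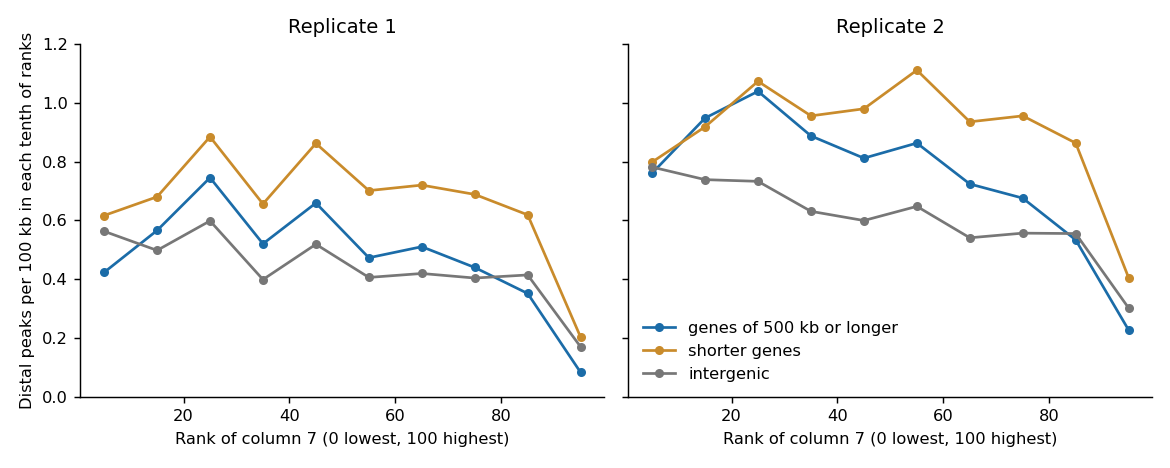
Distal peaks per 100 kb in each decile of the column 7 rank, for genes of 500 kb or longer, shorter protein-coding genes and intergenic sequence, with 1 panel per library. The deciles are uneven because many peaks share a score. In the highest decile the long genes lie below intergenic sequence, at 0.0829 against 0.170 in replicate 1 and 0.227 against 0.302 in replicate 2.

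Whether long-gene peaks were found again depended on the library. Of the long-gene peaks of replicate 1, 73.5% were matched by an overlapping peak in replicate 2, against 71.1% of all distal autosomal peaks of that library and 71.5% in shorter genes. Of those of replicate 2, 45.7% were matched by an overlapping peak in replicate 1, against 50% of all distal peaks and 51.6% in shorter genes. The direction of the difference therefore reversed between the libraries. The number of peaks rose from replicate 1 to replicate 2 by a ratio of 1.57 in long genes, 1.36 in shorter genes and 1.39 in intergenic sequence. The ratio was 1.81 in the quartile of long genes with the lowest G and C content and 1.37 in the quartile with the highest. The part of library depth or of base composition in this difference was not tested.

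Gene by gene, the 218 long genes spanned a wide range of density, and the libraries gave nearly the same order. Density ran from 0.221 to 19.1 peaks per 100 kb in replicate 1 and from 0.576 to 21.7 in replicate 2, with medians of 4.20 and 7.08. Spearman's rho between the libraries was 0.905 over the 218 genes, as a description, since genes share the libraries and 5 of them overlap another long gene. Both libraries placed 47 genes above the density of shorter genes and 148 below it. Replicate 2 held more peaks in 209 genes, fewer in 7 and the same number in 2. Density also followed base composition, with a rho of 0.688 between mean density and the G and C content of the gene and of -0.704 with its soft-masked (repeat) content. It was only weakly related to length within these genes, at a rho of -0.180.

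**Figure D3:**
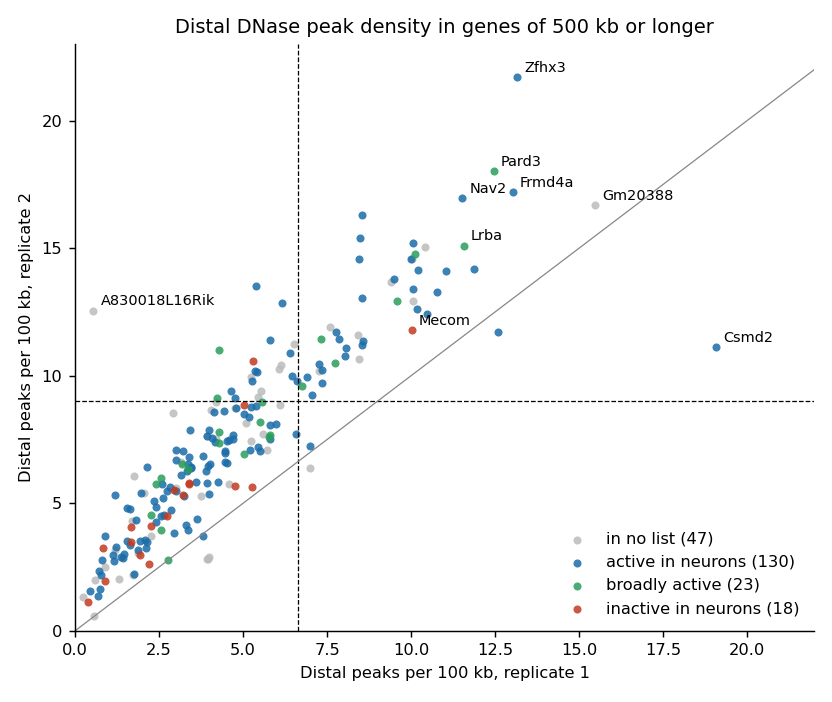
Distal peaks per 100 kb in replicate 1 (horizontal) and replicate 2 (vertical), with 1 point for each of the 218 genes, coloured by class. Dashed lines mark the density of shorter genes (6.63 and 8.99) and the grey line marks equal density; most points lie above the grey line, and Csmd2 and A830018L16Rik stand away from the others.

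Among the densest genes were transcription factor, cytoskeletal and polarity genes. Zfhx3, which encodes a zinc finger homeodomain transcription factor, held 131 peaks in replicate 1 and 216 in replicate 2, or 13.2 and 21.7 per 100 kb over 1019.0 kb (chr8:107942644-108961630, plus strand). Foxp1, a forkhead transcription factor gene, held 67 and 80 peaks, or 11.9 and 14.2 per 100 kb. Frmd4a, which encodes a scaffold protein of epithelial and neuronal polarity, held 72 and 95, or 13.0 and 17.2. All 3, picked for their high density, were above the density of shorter genes in both libraries.

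Pard3 encodes a core protein of the PAR polarity complex, and its 65 and 94 peaks gave 12.5 and 18.01 per 100 kb. Lrba, a vesicle trafficking gene, held 62 and 81 peaks (11.6 and 15.1 per 100 kb), and its relative Nbea 58 and 74 (11.04 and 14.1). Each of these 3 genes holds a dense block, described below, and outside it the densities were 8.77 and 10.8 in Pard3, 7.42 and 11.5 in Lrba and 8.215 and 11.9 in Nbea. Nav2, a neuron navigator gene, held 76 and 112 (11.5 and 16.96). Slit3, which encodes a secreted guidance protein for axons, was the only one of the 10 densest genes besides Csmd2 with fewer peaks in replicate 2, at 72 and 67 (12.6 and 11.7 per 100 kb). The model Gm20388, at 15.5 and 16.7 per 100 kb, is a read-through annotation of 4434.9 kb with 71 other coding genes wholly inside it, so its peaks belong to a gene-rich region rather than to 1 intron-rich gene.

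The sparsest genes were nearly bare. Skint5, a gene of the skin T cell selecting family, held 3 peaks in each library over 521.6 kb, at 0.576 per 100 kb. Iqcm, a gene of the testis list, held 2 and 6 peaks (0.377 and 1.13 per 100 kb). In Sntg1, which encodes a syntrophin, 2 and 12 peaks were found in 938.4 kb, with a longest stretch without a distal peak of 928.4 kb in replicate 1 and 317.5 kb in replicate 2. Several neuronal genes were as sparse. The contactin-associated gene Cntnap5b held 3 and 11 peaks, Nkain2 8 and 16, Lingo2 9 and 20 and Cntnap5c 5 and 14, all between 0.429 and 2.20 per 100 kb. The other 3 of the 10 sparsest genes, Sgcz of the muscle sarcoglycan family, the peptidase gene Cpq and the ubiquitin ligase gene March1, lay between 0.595 and 2.04. All 10, picked for their low density, were below the density of intergenic sequence in both libraries. The median gene had a longest stretch without a distal peak of 126.3 kb in replicate 1 and 81 kb in replicate 2.

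Genes known to be active in neurons had higher median densities than genes known mainly from other tissues. The 130 long genes of 4 neuronal lists had median densities of 4.14 and 7.06 peaks per 100 kb in replicates 1 and 2, with interquartile ranges of 2.62 to 6.54 and of 4.81 to 10.1. The 18 genes of 5 lists of muscle, epithelium, blood, connective tissue and testis had medians of 2.83 and 4.91, with interquartile ranges of 1.73 to 4.42 and of 3.29 to 5.73. The active genes lay above the inactive ones by 1.31 in replicate 1 and 2.15 in replicate 2, and the ratio of the medians was 1.46 and 1.44. The ranges overlapped almost wholly, from 0.429 to 19.1 in active and from 0.377 to 10.02 in inactive genes in replicate 1. A density above that of shorter genes in both libraries was reached by 30 of 130 active genes and by 1 of 18 inactive genes, Mecom, against 47 of all 218 long genes, so that the share of the active genes was near that of all. The lists rest on where the genes are known to work and not on expression in these samples, which was not measured.

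The 23 broadly expressed genes were not below the neuronal ones. Their medians were 5.03 and 7.79, above the active genes by 0.883 and 0.727 peaks per 100 kb. Of them, 7 of 23 exceeded the shorter genes in both libraries, against 47 of all 218 long genes. Of the 3 classes, the inactive genes had the lowest medians and the broad genes the highest in both libraries. Ranks differed less than densities. The median over genes of the gene's median rank was 40.7 and 37.5 for active, 39.2 and 33.7 for inactive and 38.02 and 40.01 for broad genes. The authors' hotspots, wider regions of raised DNase signal, covered a median of 1.08% and 2.14% of an active gene, 0.763% and 1.56% of an inactive gene and 1.43% and 2.56% of a broad gene.

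Base composition moved with the classes. Median G and C content was 40.2% in active genes, 38.8% in inactive genes and 40.1% in broad genes. By quartiles of G and C content, the median density of all long genes rose from 2.25 to 3.37, 4.67 and 7.57 in replicate 1 and from 3.96 to 6.52, 7.59 and 10.99 in replicate 2. Within the lowest quartile the 39 active genes had medians of 2.55 and 4.38 and the 6 inactive genes 1.80 and 3.35. In the second quartile the 23 active genes had 3.40 and 6.61 and the 8 inactive genes 2.59 and 4.82. In the third quartile the 33 active genes had 4.24 and 7.54 and the 3 inactive genes 3.40 and 5.78. By median, active genes were thus higher in both libraries in each of these 3 quartiles. Pooled over genes, the third quartile was reversed in replicate 1, at 4.725 in active and 4.932 in inactive genes. In replicate 2 its pooled densities were 8.034 and 7.058. The 3 inactive genes of that quartile include Mecom, at 10.02 in replicate 1. The highest quartile held 1 inactive gene, Dock2, at 4.76 and 5.68, against 7.77 and 11.1 for its 35 active genes.

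Nearly all long genes had an accessible promoter. A peak within 1 kb of a TSS of the gene was present in both libraries for 208 of 218 genes, or 95.4%, against 70.2% of all autosomal protein-coding genes. The long genes had a median of 7 annotated TSSs, against 3 over all autosomal protein-coding genes. Among active genes this held for 129 of 130, the exception being Fam19a1 with a promoter peak in 1 library, and among broad genes for 23 of 23. Of the 18 inactive genes, 13 had a promoter peak in both libraries and 5 in neither. The 13 are 72.2% of the class, near the 70.2% of all autosomal protein-coding genes. The name of the class therefore rests on the lists and not on these promoters. The long genes without a promoter peak were Dock2 and Arhgap15 of the blood list, Malrd1, Agbl1 and Iqcm, and the unlisted Gm37013, Gm37388, Iqschfp and Skint5.

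Genes without a promoter peak ranged from nearly empty, as Skint5 and Iqcm, to well filled. Arhgap15, which encodes a Rac-regulating protein of blood cells, held 34 distal peaks in replicate 1 and 68 in replicate 2, or 5.28 and 10.6 per 100 kb, with no promoter peak in either. Of these, 23 of 34 and 24 of 68 were matched by an overlapping peak in the other library, both below the shares of 73.5% and 45.7% over all long-gene peaks, and none of its distal peaks reached a rank of 90. Dock2, a guanine nucleotide exchange factor gene of leukocytes, held 26 and 31. None of the 4 blood markers had a promoter peak. Over the 9 genes with no promoter peak the median density was 3.94 and 3.46, against 4.26 and 7.23 in the 208 genes with one in both. The medians were thus close in replicate 1 and apart in replicate 2. The replicate 1 median of the 9 genes was the value of Gm37013, whose peaks are also counted in Gm37388. Pooled over the genes of each group, the densities were 3.16 and 4.78 without a promoter peak and 4.82 and 7.53 with one. This gap mixed classes. Within the inactive class the pooled order was reversed, at 3.005 and 5.378 in the 5 genes without a promoter peak and 2.903 and 4.866 in the 13 with one. Genes in no list kept the gap, at 3.351 and 4.029 in 4 genes without and 5.949 and 8.63 in 43 with one. Among genes with an accessible promoter alone, the active medians were 4.16 and 7.06 and the inactive medians 2.73 and 4.49.

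Lists within a class differed by more than the classes did. The 12 genes of RNA-binding proteins and transcription factors had median densities of 7.38 and 11.4 peaks per 100 kb. Of these 12, 7 exceeded the shorter genes in both libraries, against 47 of all 218 long genes. The 25 channel and receptor genes had medians of 3.37 and 4.79, and 1 of them exceeded the shorter genes in both. The gap between these medians was 4.01 in replicate 1 and 6.61 in replicate 2. Median G and C content was 43.0% in the first list and 39.9% in the second, and its part in the gap was not tested. The 50 adhesion and guidance genes had 3.96 and 6.55, and the 43 genes of scaffolds, release and signalling 4.71 and 7.25. The small lists of the inactive class also differed, with medians of 5.28 and 10.6 in the 3 blood genes, above those of the active class, and of 2.21 and 2.95 in the 5 testis and cilium genes.

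**Figure D4:**
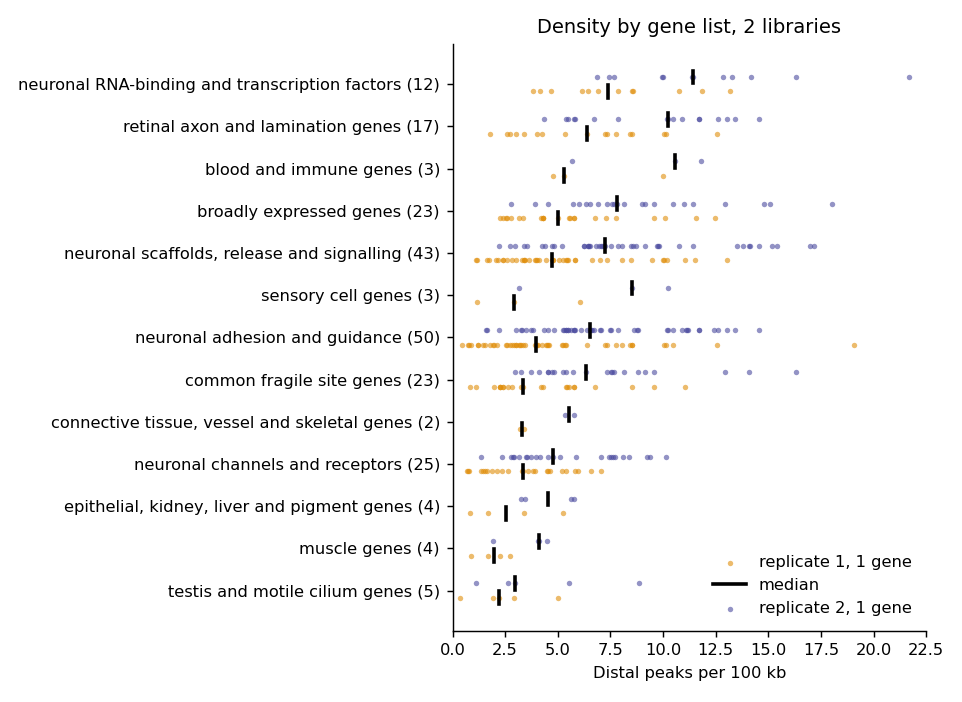
Distal peaks per 100 kb for each gene, by gene list and library, with black bars for the list medians and the number of genes in brackets. The RNA-binding and transcription factor genes have the highest medians (7.38 and 11.4) and the testis and cilium genes the lowest in replicate 2 (2.95).

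Among the transcription factor and RNA-binding genes, Zfhx3, Foxp1 and Auts2 were densest. Auts2, which encodes a regulator of neurodevelopmental gene activity, held 88 and 168 peaks (8.53 and 16.3 per 100 kb). The sparsest 3 of the list were Foxp2, a forkhead factor gene, at 3.81 and 6.86, the RNA editing gene Adarb2 at 4.16 and 7.42 and the splicing factor gene Rbfox1 at 4.70 and 7.68. All 3 were below the shorter genes in both libraries, as were 148 of all 218 long genes.

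Of the channel and receptor genes, Tmem132d (7.04 and 9.23), the acid-sensing channel gene Asic2 (5.404 and 10.2) and the calcium channel subunit gene Cacna2d3 (6.57 and 7.71) were highest. The potassium channel genes Kcnq5, with 4 and 13 peaks, and Kcnd2, with 4 and 14, were lowest beside Nkain2. The highest adhesion and guidance genes were Csmd2, Slit3 and Kirrel3, a gene for an adhesion molecule of synapse formation, with 54 and 72 peaks (10.05 and 13.4 per 100 kb). Csmd2 led through 1 block of replicate 1, described below, and had 8.55 and 11.4 per 100 kb outside it, below Slit3 in both libraries. Among scaffold and signalling genes, Ank2, which encodes the membrane adaptor ankyrin-B, held 53 and 80 peaks (10.1 and 15.2), and Mgat4c 8 and 19 (1.15 and 2.73). The others named from this list were Fstl5, with 11 and 14 peaks, and Lrp1b, with 23 and 60 in 2058.4 kb.

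The 17 long genes of retinal axon guidance and lamination, which are also members of other lists, had medians of 6.39 and 10.2. Against 47 of all 218 long genes, 8 of these 17 exceeded the shorter genes in both libraries. The highest were Slit3, Kirrel3 and Tenm3, a teneurin gene of visual map wiring, with 51 and 88 peaks (8.44 and 14.6). The lowest were the ephrin receptor gene Epha6, with 17 and 41 peaks (1.80 and 4.34), the netrin receptor gene Dcc, with 30 and 60 (2.74 and 5.47), and Cntn4, with 26 and 58 (2.58 and 5.75). Of the sensory cell genes, the adhesion receptor gene Adgrv1 had 2.91 and 8.53 peaks per 100 kb and the protocadherin gene Pcdh15 had 1.18 and 3.16.

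In the inactive class, Mecom, a blood stem cell transcription factor gene, had 57 and 67 peaks (10.02 and 11.8 per 100 kb) and a promoter peak in both libraries. The testis-list gene Galntl6 held 56 and 99 peaks (5.02 and 8.87), and its best shared peak lay over exon 7. Pkhd1, the fibrocystin gene of kidney tubules, held 29 and 31 peaks (5.26 and 5.63), and Hpse2, a heparanase family gene, 20 and 34 (3.38 and 5.75). Below the shorter genes in both libraries were 148 of all 218 long genes and all 4 muscle genes. The muscle genes were Lama2, a laminin gene, at 2.73 and 4.49, Ctnna3, an alpha-catenin gene, at 2.25 and 4.11, and the sarcoglycan genes Sgcd at 1.66 and 4.07 and Sgcz at 0.885 and 1.95. The genes of these lists not described here or above ranged from 0.827 in replicate 1 (Naaladl2) to 5.78 in replicate 2 (Nell1).

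Genes of common fragile sites, long late-replicating genes that break under replication stress, had medians of 3.35 and 6.35 over 23 genes, and 4 exceeded the shorter genes in both libraries, a share near the 47 of 218 over all long genes. The highest were Nbea, Auts2 and the oxidoreductase gene Wwox, with 86 and 116 peaks (9.58 and 12.9 per 100 kb). The lowest were Naaladl2, Lrp1b and the glypican gene Gpc5, with 32 and 53 (2.25 and 3.72). Of the broad genes, Rad51b, a gene of recombination repair, followed Pard3 and Lrba with 52 and 76 peaks (10.1 and 14.8). Inpp4b, with 21 peaks in each library, and Gmds, with 13 and 20, were among the lowest.

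Peaks inside the long genes were unevenly spaced. Of 18708 bins of 10 kb, 73.3% held no distal peak in replicate 1 and 61.5% held none in replicate 2. The densest decile of the bins held 62.5% and 50.4% of the peaks. The first intron held 25.3% and 24.2% of the peaks and 23.6% of the sequence counted. Exons held the midpoint of 3.47% and 2.79% of the peaks and made up 2.05% of the sequence. The flanking 250 kb on either side of the genes had median densities of 4.05 and 6 peaks per 100 kb. The gene was sparser than its own flanks in 94 and 73 of 218 genes, and in 59 of them in both libraries. Spearman's rho between gene and flank density was 0.682 and 0.664 over the 218 genes, so that a gene's density went with that of its neighbourhood.

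Some genes owed much of their count to a single block. In Csmd2, which encodes a complement control domain protein, 63 of the 108 peaks of replicate 1 lay in 40 kb of intron 1 (chr4:128017857-128057856), where replicate 2 had 3. Their ranks ran from 0.253 to 73.1 with a median of 1.77, and 3 of the 63 were matched by an overlapping peak in replicate 2. Outside the block the gene held 45 and 60 peaks, or 8.55 and 11.4 per 100 kb. Without it, the density of Csmd2 was lower in replicate 1 than in replicate 2, as in most long genes.

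The other blocks were taken as 2 or more adjoining bins with at least 8 peaks each in a library. Prkg1, a cyclic GMP kinase gene, had 22 peaks in 20 kb of intron 3 in replicate 1, with a median rank of 2.08, and 1 peak there in replicate 2. Thsd7b had 17 peaks in 20 kb of intron 2 in replicate 1, with a median rank of 1.2, and none in replicate 2. Gm20388 held 30 and 7 in 20 kb, and the median rank of the 30 was 5.67. These blocks stood in replicate 1, and few of their peaks were matched by an overlapping peak in replicate 2, namely 1 of 22, 0 of 17 and 6 of 30.

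The reverse was seen in A830018L16Rik, a gene singled out after its values were seen. It held 3 peaks in replicate 1 and 69 in replicate 2, of which 60 lay in 50 kb near its 3′ end. The ranks of these 60 ran from 0.0146 to 2.32, and 0 of them were matched by an overlapping peak in replicate 1. Outside those 50 kb the gene held 3 and 9 peaks, or 0.600 and 1.80 per 100 kb. The 50 kb window was also set after the data were seen. By the rule of adjoining bins the block was 20 kb long with 33 peaks of replicate 2. Outside that block lay 36 peaks of replicate 2, or 6.787 per 100 kb. Zfhx3 held 5 and 26 peaks in 20 kb of intron 6, but those of replicate 2 had a median rank of 46.7.

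Blocks with 13 or more peaks in both libraries were found in Pard3, with 21 and 40 peaks in 20 kb of intron 2 (chr8:127173893-127193892), in Lrba, with 24 and 22 in 30 kb of intron 40, and in Nbea, with 16 and 13 in 20 kb of intron 41. In Pard3 the median ranks in the block were 5.67 and 2.32, and the highest were 82.7 and 88.3, those of the window printed above. The median ranks were 54.5 and 74.3 in the block of Lrba and 40.6 and 74.2 in that of Nbea. In the Pard3 block 16 of 21 and 16 of 40 peaks were matched by an overlapping peak in the other library. The counts were 12 of 24 and 14 of 22 in Lrba and 10 of 16 and 10 of 13 in Nbea. Over all long-gene peaks the shares were 73.5% and 45.7%. The Lrba block joined bins dense in different libraries, with 15 and 5 peaks in the lowest-coordinate bin and 3 and 9 in the highest. What lies behind these blocks was not tested. With the peaks of all bins holding 8 or more in either library left out, an alternative chosen after seeing the data, the long genes had 4.47 and 7.13 peaks per 100 kb.

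**Figure D5:**
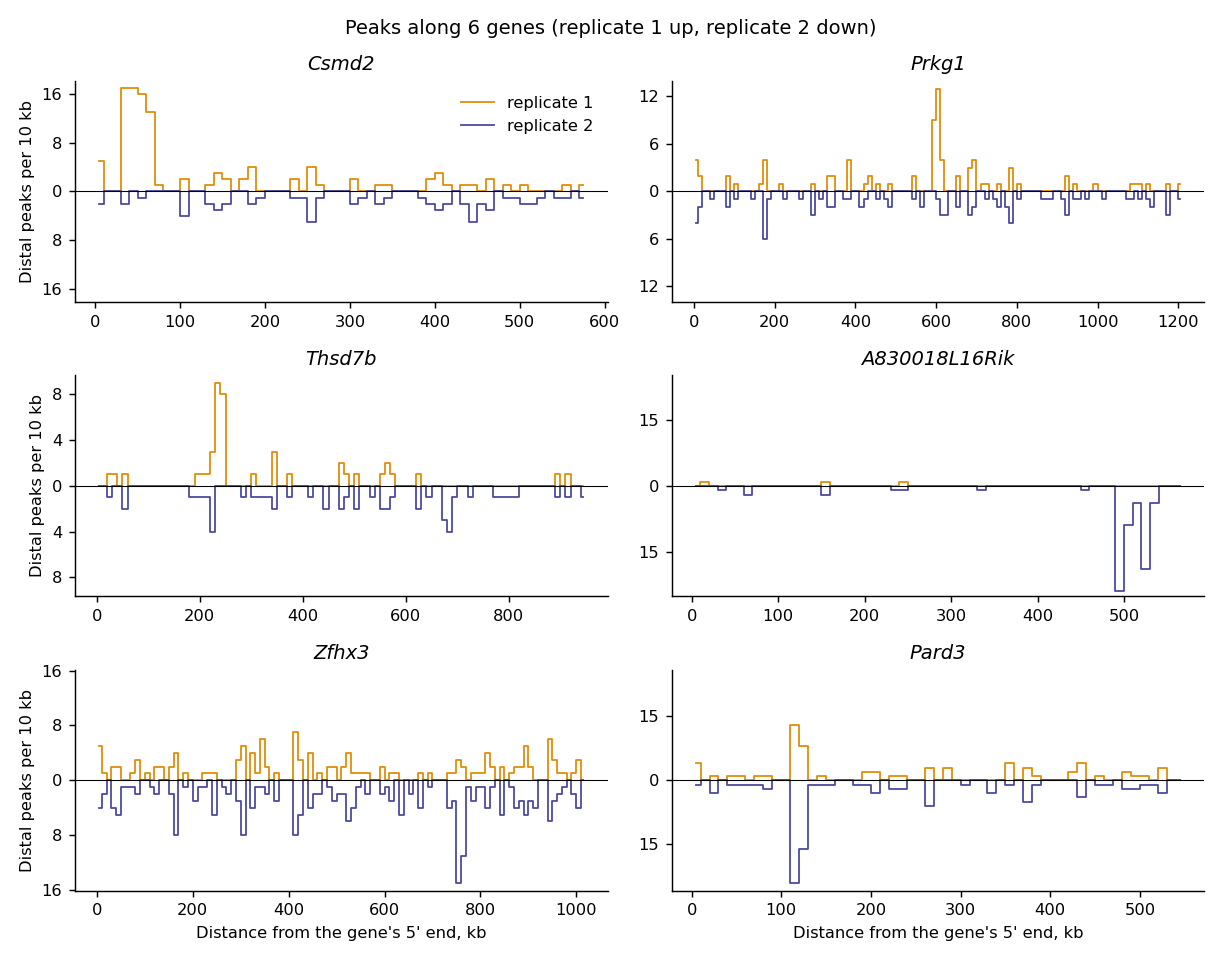
Distal peaks per 10 kb along 6 genes against the distance from the 5′ end in kb, with replicate 1 drawn upward and replicate 2 downward. The blocks of Csmd2, Prkg1 and Thsd7b stand out in replicate 1 (63, 22 and 17 peaks), those of A830018L16Rik and Zfhx3 in replicate 2, and that of Pard3 in both.

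Among the 199 genes with 10 or more peaks in each library, the ratio of replicate 2 to replicate 1 was highest in Naaladl2 (11 and 43 peaks, 3.91), the synaptic adhesion gene Lrrtm4 (12 and 37, 3.08) and the active zone gene Rims1 (11 and 33, 3). It was lowest in Csmd2 (0.583) and in the overlapping protocadherin read-through models Gm37013 and Gm37388 (28 and 20 peaks each, 0.714), which share their peaks.

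The sequences of the long-gene peaks differed from those of other distal peaks in composition and in motif content. Their median G and C content was 48% and 46.7%, against 50.7% and 50% in shorter genes and 48.7% and 48.7% in intergenic sequence. A CTCF core match was found in 2.43% and 1.56% of long-gene peaks, 3.67% and 2.83% of shorter-gene peaks and 3.78% and 2.84% of intergenic peaks. Among peaks with a rank of 90 or more the shares were 12.7% and 7.30% in long genes, 17.7% and 12.4% in shorter genes and 15.1% and 11.5% in intergenic sequence. The CTCF share of the long genes was thus lowest in both libraries, over all peaks and among the strongest, where it rested on 19 and 30 peaks.

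The A- and T-rich motifs went the other way. TAATTA, the core bound by many homeodomain factors of the retina, was found in 7.89% and 9.52% of long-gene peaks, against 5.03% and 6.15% in shorter genes and 5.98% and 7.45% in intergenic sequence. AACAAT, bound by SOX factors, was found in 9.82% and 10.2%, against 7.08% and 7.60% and against 8.37% and 9.20%. Among peaks with a rank of 90 or more, TAATTA was found in 7.33% and 10.9% of long-gene peaks, 3.30% and 5.13% of shorter-gene peaks and 3.12% and 5.69% of intergenic peaks. The long-gene shares rested on only 150 and 411 peaks of that rank. The GC box GGGCGG was rarer in long-gene peaks, at 3.47% and 3.17% against 5.80% and 5.63% in shorter genes. The E-box CAGATG was found in 17.5% and 17.7% of long-gene peaks and 16.7% and 17.4% of shorter-gene peaks, and CAGCTG in 14.4% and 14.5% against 15.6% and 16.2%. The AP-1 motif was found in 5.22% and 5.30% against 4.51% and 4.98%, and the NFI palindrome in under 0.1% of the peaks of either kind. The base composition of the peaks differed between the same groups, and its part in these shares was not tested.

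By class, TAATTA was found in 8.02% and 9.92% of the peaks of active genes, 8.18% and 11.7% of those of inactive genes and 8.54% and 9.60% of those of broad genes, so that the active genes did not stand apart. CTCF core matches lay almost only in peaks found in both libraries. Of long-gene peaks overlapped by the other library, 3.31% and 3.28% held one, against 0 of 2291 peaks of replicate 1 and 8 of 7337 peaks of replicate 2 that were not overlapped. The overlapped peaks also had higher median ranks, at 51.5 and 64.6 against 17.4 and 25.4.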

How the data were processed

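The authors deposited, per library, a list of 150 bp peaks and a list of hotspots on mm10, per the file names and labels. For aligner and caller, the tools were not given in the sources used here. Column 7 of the deposited peak lists is a score with no stated unit, and only its rank within a library was used. The deposited hotspot lists carry what reads as a −log10 p-value column, which was not used, and only their positions were. Replicates were not pooled by the authors in these files. Repeated lines (34 and 56) were removed. Midpoints were placed in GENCODE M21 gene bodies, and the denominator was sequence more than 1 kb from any TSS; a base in any long gene counted as long-gene sequence, and a peak in overlapping long genes counted once, but in each gene in the per-gene values. Overlap meant at least 1 bp. Sequences came from the RefSeq copy of GRCm38.p6. The counting was tested on simulated peaks. The gene lists came from textbook knowledge, and the members and lists were chosen with earlier results of these data known. Of 502 list entries, 171 were long genes.

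Named genes were the 10 with the highest density in their lower library, the 10 with the lowest density in their higher library, the 3 highest and 3 lowest of each list by mean density, and the 3 highest and 3 lowest ratios between libraries among genes with 10 or more peaks in each; some genes that the rule picks are not reported here. Printed windows were drawn from the shared peaks, 1 per gene, with the highest lower rank, and from the best peak of the 3 densest genes of each class. No p-value was computed, since the series holds 1 group of 2 libraries. Python 3.11.15, pandas, numpy and matplotlib were used. The alternatives tried were other length and TSS limits, stronger or shared peaks, other denominators and gene models, and each library alone.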

Additional observations from a re-analysis of the deposited data

Results flagged for a closer look

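Chromosome X was outside the comparison, and its long genes also held distal peaks. The 12 protein-coding genes of 500 kb or longer on chromosome X held 136 peaks in replicate 1 and 290 in replicate 2, or 1.25 and 2.67 per 100 kb, a mean of 1.96 over the libraries. They were singled out because they carry signal in data that the comparisons did not use. The autosomal long genes had 4.77 and 7.47. Dmd, the dystrophin gene, held 19 and 70 peaks (0.852 and 3.14 per 100 kb), and Tenm1 22 and 34 (2.48 and 3.83). The tissue was pooled from both sexes. Densities of shorter genes and intergenic sequence on chromosome X were not computed, so a trait of its long genes and one of the whole chromosome cannot be told apart.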

How the results depend on the processing

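Of 131 values recomputed for the 9 main results, 103 lay within 1 SD (over the 2 libraries) of the value reported. These counts include each library alone, which lies within 1 SD of the mean by construction where the 2 libraries differ. The SD also holds the difference in peak numbers between the libraries, and for density it was 1.91 around 6.12. All values below are means over the libraries. The long genes were sparser than shorter genes in both libraries under all 13 alternatives that gave this ratio, from 0.671 to 0.848 around 0.775, and active genes were above inactive genes under all 14, from 1.33 to 1.74 around 1.45. With the peaks of rank 50 or more, density in long genes was 2.44, its ratio to shorter genes 0.671, the median rank 68.7, the share at rank 90 or more 5.99%, the overlapped share 88.8%, and the active and inactive medians 2.13 and 1.21, with a ratio of 1.74. With overlapped peaks alone these were 3.46 for density, 58.1 for rank, 4.44% at rank 90 or more, 2.91 and 2.06 for active and inactive medians with a ratio of 1.41, and 2.38 for genes with against without a promoter peak (1.59 as reported). The median rank, 40.9 with an SD of 0.262, moved to 43.0 at 300 kb, 42.1 at 1 Mb, 39.95 with equal numbers of peaks and 40.4 without scores in decimal form. The active to inactive ratio, with an SD of 0.0173, moved to 1.33 at 300 kb, 1.70 at 1 Mb, 1.55 beyond 5 kb from a TSS, 1.65 with equal numbers, 1.49 without decimal-form scores and 1.55 among genes with a promoter peak. Of 3 alternatives chosen after seeing the data, RefSeq lengths gave a median rank of 39.99, dropping dense bins gave 42.1 and an active to inactive ratio of 1.43, and dropping Gm20388 moved nothing beyond 1 SD. Beyond what the alternatives' own construction sets, the cause was not tested. In single libraries the values ranged from 4.77 to 7.47 for density, 0.720 to 0.830 for its ratio, 40.7 to 41.1 for rank, 1.74% to 3.04% at rank 90 or more, 45.7% to 73.5% overlapped, 4.14 to 7.06 and 2.83 to 4.91 for the class medians, 1.44 to 1.46 for their ratio and 1.08 to 2.09 for the promoter ratio. The promoter ratio could not be had at 1 Mb, where every gene had a promoter peak in a library, nor without nested genes, where a gene had no sequence left. Of 752 values for 67 named genes, 596 lay within 1 SD, with each library alone again counted. No paired analysis was possible because the series holds 1 group. The number of libraries and the unknown depth limit all densities.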
